A study of Homo sapiens with 9 samples.

Results

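The genes described are the zinc-finger (ZNF) genes of human chromosome 19 that lie outside the 19p12 cluster. The rule that selects them uses name and position only, but it was set with earlier results of these data known. It takes the genes whose symbol is ZNF followed by a digit. Their start on chromosome 19 must lie outside the interval of the 19p12 cluster (GRCh38, GENCODE release 29). That interval separates ZNF333, the last member of 19p13, which ends at 14.7 Mb, from ZNF536, the first member of 19q, which starts at 30.2 Mb. By this rule 236 of the 26240 genes in the deposited count table are members, 50 on 19p13 and the others on 19q. Of these, 205 are annotated as protein-coding and 31 as pseudogenes, antisense or other non-coding transcripts that carry a ZNF name. Their transcripts were counted by RNA-seq in definitive endoderm, the germ layer of gut, liver and pancreas, which had been differentiated from the established human embryonic stem cell line H9. CHD7, which encodes a chromatin remodeller and is mutated in CHARGE syndrome, had been deleted by CRISPR/Cas9, and the libraries fall into homozygous CHD7 mutant (CHD7-/-), heterozygous mutant (CHD7+/-) and wild-type (CHD7+/+) cells, with 3 libraries each. The labels name no deleted interval and do not say how many clones or cultures stand behind a genotype. The p-values therefore speak for the spread among the 9 libraries alone, part or all of which may be technical, and a difference between genotypes cannot be told apart from a difference between clones.

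Most of these genes encode C2H2 zinc-finger proteins, in which an array of finger domains reads a DNA sequence. Many also carry an amino-terminal KRAB domain, which recruits the co-repressor TRIM28 and with it histone methylation and silencing, above all at transposable elements. The family grew by repeated tandem duplication, so that its members stand side by side in clusters, differ in their targets and share long stretches of similar sequence. Reads from near-identical stretches may be assigned to the wrong member or to none, and exons of 139 of the 236 members overlap another annotated gene on the same or the opposite strand, so single values carry that uncertainty.

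The total count per library was between 11854173 and 37519729, and homozygous replicate 1 was the shallowest. Libraries of a genotype differed beyond counting noise, with a chi-square per degree of freedom from 2.55 (wild-type replicates 2 and 3) to 30.6 (homozygous replicates 2 and 3). Levels are in CPM, the counts scaled to a common library size, and a gene is called at a p below 0.05 in edgeR's quasi-likelihood test after Benjamini-Hochberg adjustment over all 16837 genes tested. CHD7 itself stood at 51.5 ± 7.41 CPM in homozygous, 123 ± 11.2 CPM in heterozygous and 193 ± 3.29 CPM in wild-type cells (SD, n = 3 each). All 12 definitive endoderm markers checked were tested, and 4 were called lower in homozygous than in wild-type cells (FOXA1, FOXA2, CER1 and HHEX), 1 of them, FOXA1, also in heterozygous cells. FOXA1 stood at 2.68 ± 0.378, 11.6 ± 1.44 and 20.6 ± 4.96 CPM in homozygous, heterozygous and wild-type cells, while SOX17, which was not called, stood at 629.6 ± 40.9, 618.6 ± 52.6 and 717 ± 15 CPM (SD, n = 3 each). The summed level of the list, most of which is CER1, was 7338 to 8533 CPM in homozygous, 9074 to 10180 CPM in heterozygous and 10790 to 11600 CPM in wild-type libraries. In the same order of genotypes, the 8 pluripotency markers summed to 1778 to 2027, 2240 to 2358 and 1998 to 2120 CPM. Of these, TDGF1 was called lower in homozygous than in wild-type cells and NANOG lower in homozygous than in heterozygous cells. NANOG stood at 4.22 ± 2.43, 13.2 ± 4.26 and 10.4 ± 1.79 CPM, SOX2 at 4.39 ± 3.08, 13.6 ± 7.08 and 4.85 ± 1.99 CPM and POU5F1 at 89.98 ± 49.1, 158.9 ± 39.4 and 69.6 ± 22.3 CPM (SD, n = 3 each). Mesoderm markers summed to 20.8 to 34.4, 32.4 to 41.4 and 43.4 to 58.9 CPM, neuroectoderm markers to 306 to 356, 318 to 376 and 355 to 397 CPM, and trophectoderm and amnion markers to 23.0 to 29.8, 12.9 to 13.9 and 9.25 to 12.2 CPM. Most of these sums was KDR, NES and TFAP2C, in that order. In homozygous against wild-type cells KDR was called lower, and OTX1, GATA3 and TFAP2C higher. OTX1 was also called higher in heterozygous cells, and stood at 1.30 ± 0.353, 1.11 ± 0.0443 and 0.413 ± 0.0179 CPM (SD, n = 3 each). NES was not called. The part of these shifts in the differences between genotypes was not tested. In such bulk libraries, fewer cells that express a gene and less RNA per cell cannot be told apart.

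The members were expressed at modest levels. Of the 236, 214 passed the filter on low counts, 45 on 19p13 and 169 on 19q, and the other 22 had 5 to 80 counts summed over the 9 libraries. The wild-type level of the tested members ran from 0.339 to 135 CPM with a median of 9.43 CPM. Per kilobase of exon, the wild-type median was 1.47 CPM per kilobase on 19p13 and 1.87 on 19q, against 3.08 over all tested genes. By this measure the most abundant member was ZNF146, a protein made of zinc fingers without a KRAB domain, at 28.9, 33.8 and 32.6 CPM per kilobase in homozygous, heterozygous and wild-type cells. ZNF428 and ZNF581 followed on 19q, and ZNF358, ZNF121 and ZNF627 led on 19p13. Of these 6 abundant genes only ZNF121 was called in any comparison.

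Across genotypes most members differed little in level, while a few were without counts, or nearly so, in 1 or both mutants. The genotype means of 181 of the 214 tested members (84.6%) lay within 1.5-fold of each other, against 78.2% of all tested genes. At least 1 of the 3 comparisons called 25 members, which is 11.7%, against 8.48% of all tested genes. In 5 tested members the genotype means lay over 4-fold apart or a genotype had no count at all, namely ZNF562, ZNF229, ZNF677, ZNF772 and ZNF69. For this measure the share over all tested genes was not computed, so the 5 are not set against a background. The summed level of all 236 members was 3043, 2898 and 3144 CPM in homozygous replicates 1, 2 and 3, 2996, 3085 and 3253 CPM in the heterozygous replicates, and 3224, 3356 and 3272 CPM in the wild-type replicates. The homozygous sums all lay below the wild-type sums, and the heterozygous sums overlapped with both.

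**Figure D1:**
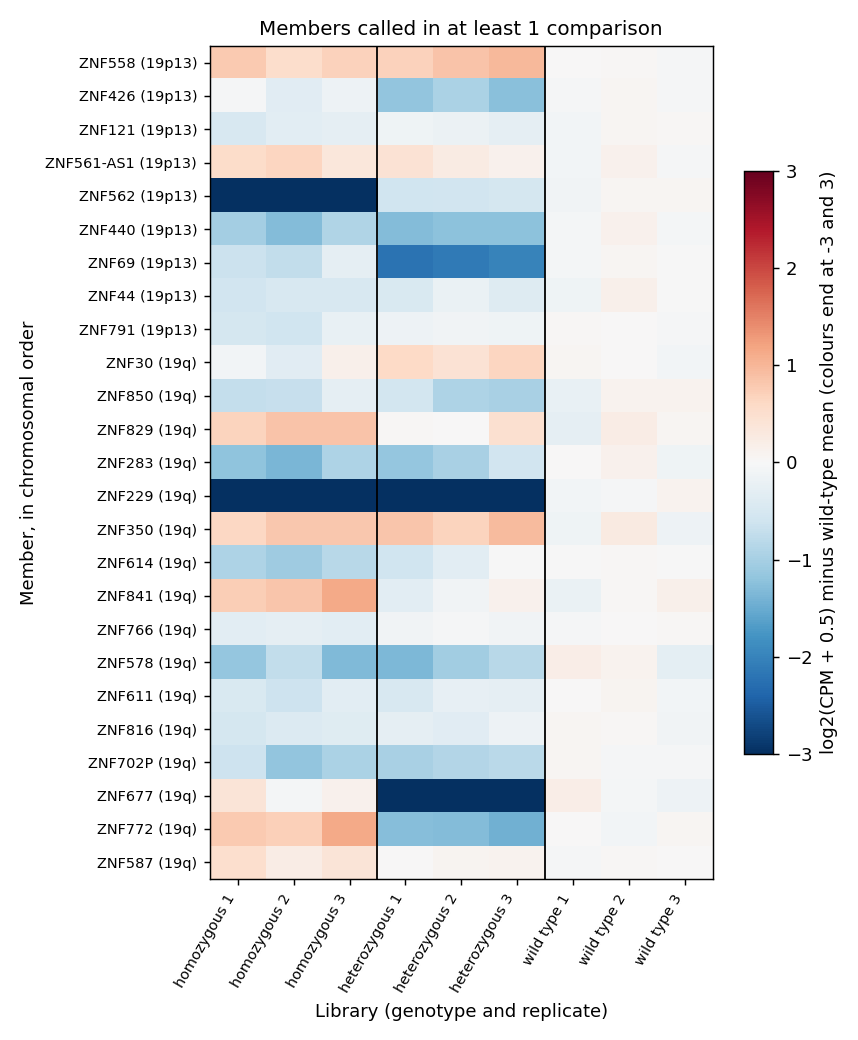
Levels of the 25 members called in at least 1 comparison, in each of the 9 libraries, as log2(CPM + 0.5) minus the wild-type mean (colours end at -3 and 3; rows in chromosomal order). ZNF562 is dark blue in the homozygous libraries alone, ZNF677 in the heterozygous libraries alone and ZNF229 in both, while most other rows differ by less than 2-fold.

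The promoters of these 5 genes are shown because their transcripts were without counts in a genotype or differed over 4-fold, and that of ZNF426 because it was, like ZNF677, ZNF772 and ZNF69, called lower in heterozygous cells than in both other genotypes. Each window spans 250 bases before to 50 bases after a RefSeq start (GRCh38.p14) and is written 5′ to 3′ on the gene's strand, with CG dinucleotides, the sites of CpG methylation, in capitals. The windows are chr19:9675051-9675350 (ZNF562, minus strand), chr19:44448529-44448828 (ZNF229, minus), chr19:53254824-53255123 (ZNF677, minus), chr19:57477517-57477816 (ZNF772, minus), chr19:11887532-11887831 (ZNF69, plus) and chr19:9538596-9538895 (ZNF426, minus).
ZNF562: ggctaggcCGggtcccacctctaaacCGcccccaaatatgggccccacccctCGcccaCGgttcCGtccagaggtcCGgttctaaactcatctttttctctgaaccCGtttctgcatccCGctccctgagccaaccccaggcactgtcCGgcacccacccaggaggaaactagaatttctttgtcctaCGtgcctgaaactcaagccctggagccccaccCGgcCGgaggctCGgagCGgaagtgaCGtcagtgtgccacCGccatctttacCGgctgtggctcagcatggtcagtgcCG
ZNF229: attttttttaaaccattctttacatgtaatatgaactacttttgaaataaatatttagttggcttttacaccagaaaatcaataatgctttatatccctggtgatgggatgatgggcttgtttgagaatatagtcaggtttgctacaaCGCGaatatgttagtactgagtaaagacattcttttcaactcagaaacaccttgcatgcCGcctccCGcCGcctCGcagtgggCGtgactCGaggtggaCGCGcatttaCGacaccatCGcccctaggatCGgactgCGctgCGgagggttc
ZNF677: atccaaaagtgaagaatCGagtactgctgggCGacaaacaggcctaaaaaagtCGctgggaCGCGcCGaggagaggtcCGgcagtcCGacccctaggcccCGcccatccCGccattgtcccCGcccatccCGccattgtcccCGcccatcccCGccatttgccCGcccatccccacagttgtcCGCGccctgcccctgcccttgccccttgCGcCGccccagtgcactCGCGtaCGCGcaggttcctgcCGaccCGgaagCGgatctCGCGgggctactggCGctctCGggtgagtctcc
ZNF772: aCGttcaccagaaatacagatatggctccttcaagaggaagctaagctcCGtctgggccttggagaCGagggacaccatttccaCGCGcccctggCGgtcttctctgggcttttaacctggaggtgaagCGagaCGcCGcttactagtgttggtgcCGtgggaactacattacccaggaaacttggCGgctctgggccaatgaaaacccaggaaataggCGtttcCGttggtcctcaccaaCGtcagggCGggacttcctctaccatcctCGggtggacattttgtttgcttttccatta
ZNF69: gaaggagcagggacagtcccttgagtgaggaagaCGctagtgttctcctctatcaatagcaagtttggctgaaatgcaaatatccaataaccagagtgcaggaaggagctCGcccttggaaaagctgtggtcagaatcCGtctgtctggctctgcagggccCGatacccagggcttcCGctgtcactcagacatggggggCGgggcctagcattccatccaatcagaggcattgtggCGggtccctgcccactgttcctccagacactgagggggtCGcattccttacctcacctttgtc
ZNF426: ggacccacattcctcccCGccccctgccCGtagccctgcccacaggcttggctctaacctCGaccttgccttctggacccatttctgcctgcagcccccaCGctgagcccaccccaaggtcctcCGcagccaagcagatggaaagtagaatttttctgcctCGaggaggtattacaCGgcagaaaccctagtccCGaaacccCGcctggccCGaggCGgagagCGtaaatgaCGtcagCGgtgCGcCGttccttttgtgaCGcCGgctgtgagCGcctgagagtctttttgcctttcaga
A window was found for 204 of the 236 members. The CG dinucleotide, which reads the same on both strands, occurred 18 times in the ZNF562 window, 15 times in that of ZNF229, 30 in ZNF677, 16 in ZNF772, 8 in ZNF69 and 19 in ZNF426. The median was 22 over the members' windows and 14 over 27305 gene promoters, of which 95.8% held at least 1. The ZNF69 window was among the poorest of the members, since 1.0% of member windows had fewer CG, and ZNF677 was among the richer, since 84.3% had fewer. Members called in at least 1 comparison had a median of 21 and those called in none a median of 22. These are counts of letters and say nothing of methylation, which was not measured in these libraries.

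ZNF562 (ENSG00000171466, chromosome 19, 9641808 to 9675086, minus strand) was nearly silent in homozygous cells only. It had 0, 5 and 0 counts in homozygous replicates 1, 2 and 3, against 520, 474 and 374 counts in the wild-type replicates. In CPM it stood at 0, 0.166 and 0 in the homozygous, 9.80, 9.90 and 10.3 in the heterozygous and 13.9, 15.5 and 15.5 in the wild-type replicates. No libraries of different genotypes overlapped. The level was 185.3-fold lower in homozygous than in wild-type cells, with an exact 95% counting interval of 79.2 to 572 (adjusted p = 1.18e-07, edgeR), and 124-fold lower than in heterozygous cells (52.9 to 383, adjusted p = 4.64e-07). The heterozygous difference from wild type, -0.59 on the log2 scale (SE 0.18, adjusted p = 0.147), was not called.

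ZNF229 (ENSG00000278318, 44417519 to 44448578, minus strand) had no count in either mutant. It had 0 counts in each of the 3 homozygous and 3 heterozygous libraries, against 140, 119 and 104 counts (3.75, 3.90 and 4.32 CPM) in wild-type replicates 1, 2 and 3. With the floor set at 3 counts over a genotype, it was at least 82.0-fold lower in homozygous (adjusted p = 3.77e-05) and at least 108-fold lower in heterozygous cells (adjusted p = 4.08e-05). Such floors and counting intervals cover counting error only, because PCR copies of a molecule were not told apart.

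ZNF677 (ENSG00000197928, 53235381 to 53254898, minus strand), a gene known to be silenced by promoter methylation in several cancers, was without counts in heterozygous cells and present in both other genotypes. It stood at 11.8, 8.44 and 9.67 CPM in the homozygous replicates, 0 CPM in each heterozygous replicate and 10.2, 8.53 and 7.97 CPM in the wild-type replicates. The homozygous and wild-type libraries overlapped (log2 fold change 0.15, SE 0.17, adjusted p = 0.648). It was at least 246-fold lower in heterozygous than in wild-type cells (adjusted p = 8.42e-07), and at least 258-fold higher in homozygous than in heterozygous cells (adjusted p = 5.71e-07).

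ZNF772 (ENSG00000197128, 57466663 to 57477570, minus strand) was called in all 3 comparisons, higher in homozygous and lower in heterozygous than in wild-type cells. Its level was 2.26, 2.12 and 2.99 CPM in the homozygous, 0.163, 0.146 and 0.0848 CPM in the heterozygous and 1.13, 1.02 and 1.16 CPM in the wild-type replicates, without overlap between genotypes. The heterozygous level was 8.16-fold lower than in wild type (11 counts against 101, exact 95% counting interval 4.37 to 16.9, adjusted p = 0.000452), and the homozygous level was 18.0-fold higher than the heterozygous one (9.79 to 36.9, adjusted p = 2.73e-05). The homozygous rise over wild type was 1.15 on the log2 scale (SE 0.25, adjusted p = 0.0142), and it was not called without wild-type replicate 2 (adjusted p = 0.0771) or 3 (0.0552).

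ZNF69 and ZNF426, both on 19p13, were lowest in heterozygous cells. ZNF69 (ENSG00000198429, 11887784 to 11914329, plus strand) stood at 10.6, 9.997 and 14.1 CPM in the homozygous, 3.26, 3.54 and 3.86 CPM in the heterozygous and 16.4, 17.7 and 17.0 CPM in the wild-type replicates. It fell by 2.26 in heterozygous cells on the log2 scale (SE 0.15, adjusted p = 4.46e-06), and it was higher in homozygous than in heterozygous cells by 1.70 (SE 0.16, adjusted p = 5.96e-05). The smaller homozygous fall, -0.56 (SE 0.14, adjusted p = 0.0310), was lost without wild-type replicates 1, 2 or 3 (adjusted p = 0.0625, 0.139 and 0.103), heterozygous replicate 2 (0.0552) or homozygous replicates 1 or 2 (0.105 and 0.124). ZNF426 (ENSG00000130818, 9523224 to 9538645, minus strand) stood at 38.03, 30.9 and 35.3 CPM in the homozygous, 17.0, 20.1 and 16.1 CPM in the heterozygous and 38.4, 40.8 and 38.2 CPM in the wild-type replicates. Its heterozygous log2 fold change was -1.14 (SE 0.11, adjusted p = 8.05e-05), and the homozygous cells, at -0.18 (SE 0.11, adjusted p = 0.353), were not called against wild type.

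**Figure D2:**
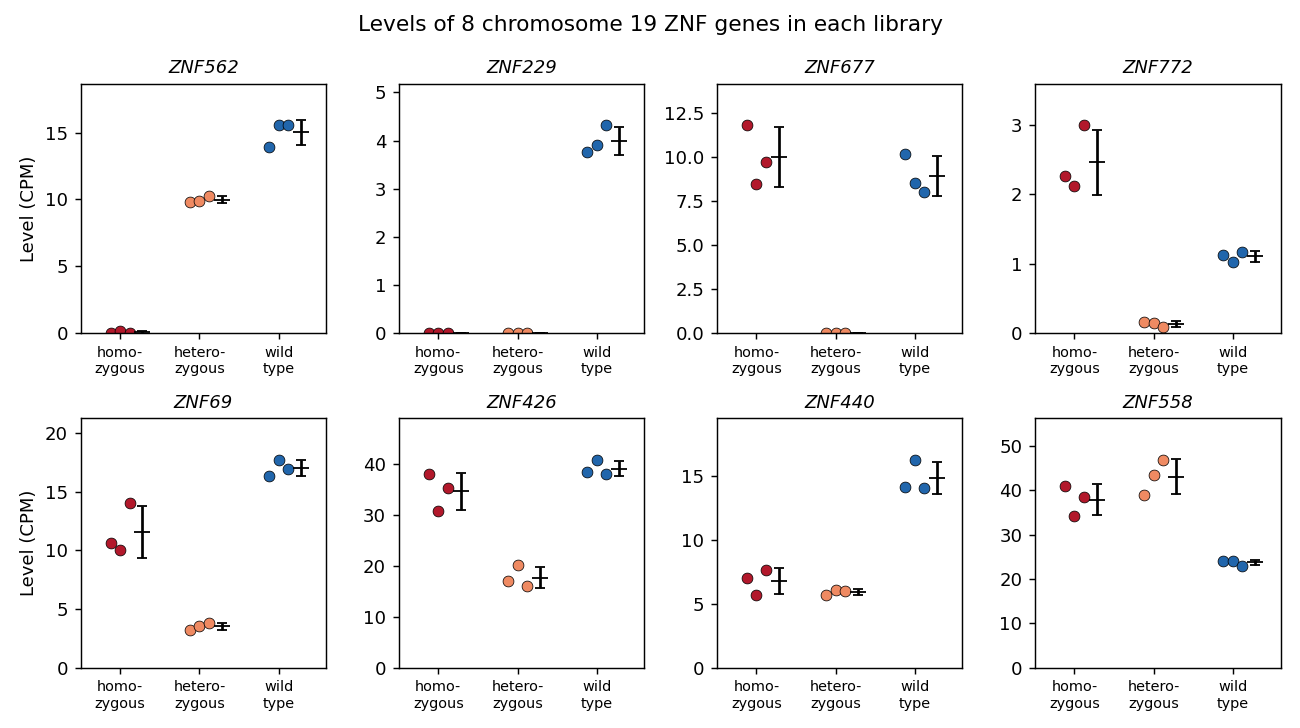
Level in CPM (linear axes from 0) of 8 members in each library of homozygous, heterozygous and wild-type cells; points are libraries, and the bar beside them is the mean ± SD of 3. ZNF562, ZNF229 and ZNF677 lie at or near 0 in 1 or both mutants, ZNF772 is lowest in heterozygous and highest in homozygous cells, and ZNF558 is higher in both mutants than in wild type.

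The genes next to the members over 4-fold apart were mostly not called. The nearest tested protein-coding genes to ZNF562 are ZNF561, at 44.3, 51.3 and 48.0 CPM in homozygous, heterozygous and wild-type cells, and ZNF846, at 3.98, 4.82 and 4.24 CPM (homozygous against wild type, adjusted p = 0.571 and 0.763). Of the 3 tested genes on each side of ZNF562, ZNF121 was called lower in homozygous cells (-0.35, SE 0.09, adjusted p = 0.0250) and ZNF561-AS1 higher. The antisense transcript ZNF561-AS1, which lies between ZNF561 and ZNF562 and whose exons overlap those of ZNF562 on the opposite strand, was higher in homozygous cells, with 12.3 ± 1.35 CPM against 8.44 ± 0.668 CPM in wild-type cells (SD, n = 3 each; adjusted p = 0.0287). The strand setting of the counting is unknown here, so reads of the 2 overlapping transcripts cannot be told apart. Exons of ZNF229 overlap those of AC245748.2, and exons of ZNF772 those of AC004076.1, on the same strand. Those of ZNF677 overlap AC092070.3 on the opposite strand. ZNF285 and ZNF180, on either side of ZNF229, differed from wild type by -0.11 and -0.16 in homozygous and by 0.02 and -0.03 in heterozygous cells on the log2 scale, and neither was called. None of the 3 tested genes on each side of ZNF677 or of ZNF772 was called in any comparison. Beside ZNF69, however, its neighbour ZNF440 also fell in both mutants, while ZNF700 on the other side was called in neither.

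In homozygous against wild-type cells, 7 of the 214 tested members rose and 14 fell, which is 9.81% called, against 7.68% of all tested genes. Falls made up 6.54% of the members, against 4.18% of all tested genes, and rises 3.27%, against 3.5%. With upper-quartile scaling the split was 8 higher and 10 lower. The homozygous and wild-type libraries did not overlap in 83 members, 21 with higher and 62 with lower homozygous levels, which is 38.8%, against 28.9% of all tested genes (13.2% higher and 15.7% lower). That share was 65.5% of the tested ZNF genes of 19p12 and 36.0% of those of other chromosomes. ZNF562 and ZNF229 were called and at least 4-fold lower. They make up 0.935% of the tested members, against 0.885% of all tested genes called and changed by that much in either direction. The fitted fold change of every other called member was below 3-fold. ZNF440 fell to 7.02, 5.69 and 7.68 CPM in the homozygous replicates, against 14.1, 16.3 and 14.1 CPM in the wild-type replicates (log2 fold change -1.13, SE 0.14, adjusted p = 0.000308). ZNF614 was lower as well, at 23.6 ± 1.995 CPM in homozygous against 46.0 ± 1.02 CPM in wild-type cells (SD, n = 3 each), which is -0.96 on the log2 scale (SE 0.13, adjusted p = 0.000654). ZNF283 fell by 1.31 (SE 0.21) and the pseudogene ZNF702P by 0.95 (SE 0.14) on the log2 scale. In these 4 genes every homozygous library lay below every wild-type library, and their calls held without any 1 of the 9 libraries.

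Among the rises, ZNF558, which in human neural progenitors is known to repress the mitophagy gene SPATA18, stood at 37.8 ± 3.46 CPM in homozygous against 23.7 ± 0.659 CPM in wild-type cells (SD, n = 3 each; log2 fold change 0.67, SE 0.10, adjusted p = 0.00134). ZNF841 stood at 9.87 ± 1.54 CPM against 5.02 ± 0.683 CPM (0.99, SE 0.18, adjusted p = 0.00405). These calls held without any 1 library. ZNF350, a KRAB repressor known to bind BRCA1, rose by 0.81 (SE 0.17, adjusted p = 0.0107), a call that was lost without wild-type replicate 3 (0.0612). ZNF587, which is known to restrain HERV-K elements, rose by 0.37 (SE 0.09, adjusted p = 0.0178), and its exons overlap those of ZNF814 on the opposite strand. It was not called without wild-type replicates 1, 2 or 3 (adjusted p = 0.0723, 0.0676 and 0.0837) or homozygous replicate 1 (0.0742). ZNF829, at 1.22 ± 0.120 CPM in homozygous against 0.506 ± 0.170 CPM in wild-type cells (SD, n = 3 each), had an adjusted p of 0.0438 in edgeR and was not called without any 1 library other than heterozygous replicate 3 (0.0546 to 0.14). ZNF561-AS1 was no longer called without wild-type replicates 1, 2 or 3 (0.0992, 0.0626 and 0.114) or homozygous replicates 1 or 2 (0.0751 and 0.117).

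The calls of 7 other falls were lost without at least 1 library. ZNF578, at 0.587 ± 0.243 CPM in homozygous against 1.78 ± 0.393 CPM in wild-type cells (SD, n = 3 each), fell by 1.53 on the log2 scale (SE 0.36, adjusted p = 0.0198) and was no longer called without wild-type replicates 1 or 2 (0.0706 and 0.0808) or homozygous replicate 1 (0.0649). ZNF791 fell by 0.45 (SE 0.10), a call that was lost without wild-type replicates 1 or 2 (0.0564 and 0.0709) or homozygous replicates 1 or 2 (0.0695 and 0.0559). ZNF611 fell by 0.48 (SE 0.11), a call that was lost without wild-type replicates 1, 2 or 3 (0.0631, 0.116 and 0.0509) or homozygous replicates 1 or 2 (0.0649 and 0.0836). ZNF121 fell by 0.35 (SE 0.09), a call that was lost without wild-type replicates 2 or 3 (0.136 and 0.109) or homozygous replicate 1 (0.0994). ZNF816 fell by 0.45 (SE 0.12) and kept its call only without homozygous replicate 3 or heterozygous replicate 3, and ZNF44 fell by 0.55 (SE 0.15) and kept it only without heterozygous replicate 3 (highest adjusted p 0.163 and 0.203). The remaining member that fell, ZNF766, by 0.30 (SE 0.08, adjusted p = 0.0419), is named after its value was seen, and kept its call only without heterozygous replicate 3 (0.059 to 0.165 otherwise). The count of called members was 12, 9 and 10 without wild-type replicates 1, 2 and 3, 11 and 13 without homozygous replicates 1 and 2, and 4 when tested against a 1.5-fold change.

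In heterozygous against wild-type cells, 2 of the 214 tested members (0.935%, against 0.82% of all tested genes) rose and 10 fell, which is 5.61% called, against 1.86% of all tested genes. Falls made up 4.67% of the members, against 1.04% of all tested genes. Of the 10 falls, 4 were at least 4-fold (ZNF677, ZNF229, ZNF772 and ZNF69), or 1.87% of the tested members, against 0.22% of all tested genes called lower by that much. The ZNF genes of 19p12 fell more often, with 6 of 29 tested (20.7%) called lower, 3 of them at least 4-fold. Of 261 tested ZNF genes of other chromosomes, 6 rose and 4 fell (3.83% called), with 3 of the falls at least 4-fold. A share of calls above that of all tested genes was thus not particular to the members. ZNF440 was at 5.66, 6.07 and 6.02 CPM in the heterozygous replicates, against 14.1, 16.3 and 14.1 CPM in the wild-type replicates (log2 fold change -1.33, SE 0.14, adjusted p = 0.000182). ZNF702P fell by 0.92 (SE 0.14, adjusted p = 0.00350), and ZNF558 rose to 43.0 ± 3.97 CPM in heterozygous against 23.7 ± 0.659 CPM in wild-type cells (SD, n = 3 each; 0.86, SE 0.10, adjusted p = 0.000378). These 3 calls held without any 1 library. ZNF350 rose by 0.88 (SE 0.17, adjusted p = 0.0170), a call that was lost without wild-type replicates 1 or 3 (0.0553 and 0.116) or heterozygous replicate 1 (0.0619). ZNF283 fell by 0.98 (SE 0.20) and ZNF578 by 1.64 (SE 0.34), and both calls were lost without wild-type replicates 1, 2 or 3 or heterozygous replicates 1 or 2 (adjusted p = 0.0522 to 0.155 for ZNF283 and 0.0528 to 0.157 for ZNF578). ZNF850, named after its value was seen, fell by 0.84 (SE 0.17, adjusted p = 0.0221), a call that was lost without wild-type replicates 2 or 3 (0.131 and 0.121) or heterozygous replicates 2 or 3 (0.141 and 0.0678). The count was 12 in the fit of all libraries, 8 to 14 with 1 library left out, and 6 against a 1.5-fold change.

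Between the mutants, 5 of the 214 tested members were higher and 3 lower in homozygous than in heterozygous cells, which is 3.74% called, against 2.21% of all tested genes (0.986% higher and 1.22% lower). The 5 higher members were ZNF677, ZNF772, ZNF69, ZNF426 and ZNF841, and the 3 lower ones were ZNF562, ZNF614 and ZNF30. ZNF841 stood at 8.69, 9.30 and 11.6 CPM in the homozygous against 3.94, 4.57 and 5.47 CPM in the heterozygous replicates (log2 fold change 1.09, SE 0.18, adjusted p = 0.00644), and its exons overlap those of ZNF432 on the same strand. ZNF614 stood at 23.8, 21.6 and 25.5 CPM in the homozygous against 30.3, 36.8 and 45.7 CPM in the heterozygous replicates (-0.67, SE 0.13, adjusted p = 0.0212). Its call was lost without heterozygous replicate 2 (0.0779) or homozygous replicates 1 or 2 (0.0587 and 0.0745). ZNF30 stood at 5.10, 4.24 and 6.13 CPM in the homozygous against 8.56, 7.53 and 8.82 CPM in the heterozygous replicates (adjusted p = 0.0463), and was called only without homozygous replicate 3 when 1 library was left out (0.0629 to 0.154 otherwise). ZNF440, ZNF702P and ZNF558, called in the same direction in both mutants, differed between them by 0.19 (SE 0.15), -0.03 (SE 0.15) and -0.19 (SE 0.10) on the log2 scale. These comparisons share libraries, so their values are given side by side and are not independent of each other.

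In homozygous against wild-type cells, 8 of 45 tested members of 19p13 were called (2 higher and 6 lower, 17.8%), and on 19q 13 of 169 (5 higher and 8 lower, 7.69%), against 7.68% of all tested genes. In heterozygous against wild-type cells the counts were 4 of 45 (8.89%) and 8 of 169 (4.73%), against 1.86%. The median log2 fold change was -0.15 on 19p13 and -0.11 on 19q in homozygous cells, and -0.13 and -0.05 in heterozygous cells. No test was made between the arms, since neighbouring members are not replicates. All 8 called 19p13 members lay in the cluster between 7.1 and 12.6 Mb, where 40 members were tested. On 19q, the cluster between 47.5 and 58.5 Mb held 10 called of 105 tested, that between 40.0 and 45.1 Mb 2 of 27 (ZNF229 and ZNF283), and that between 34.5 and 37.8 Mb 1 of 36 (ZNF829). Without wild-type replicates 1, 2 or 3 or homozygous replicates 1 or 2 the 19p13 count was 4, 3, 4, 4 and 4. The 19q count was 8, 6 and 6 without wild-type replicates 1, 2 and 3, 7 without homozygous replicate 1 and 20 without homozygous replicate 3.

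**Figure D3:**
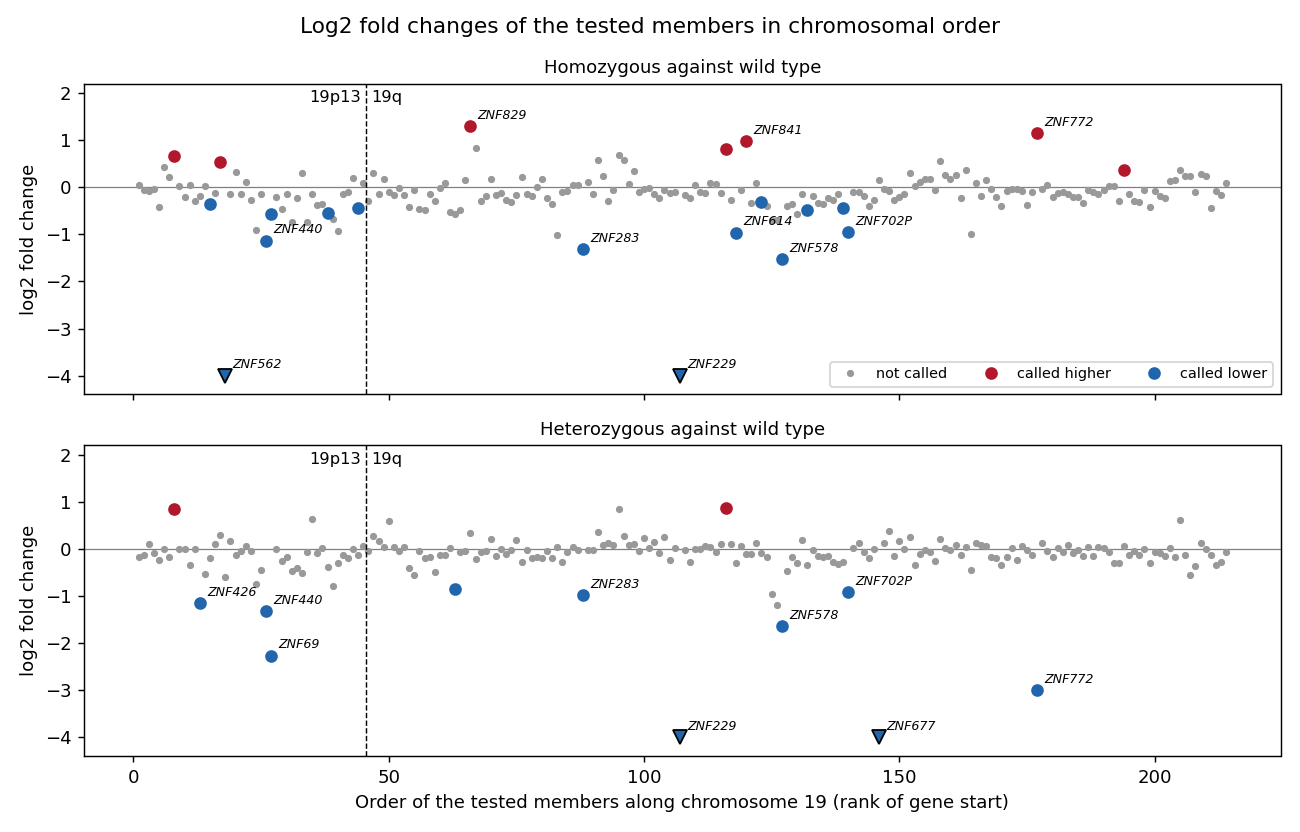
Log2 fold changes of the 214 tested members in chromosomal order (x axis, rank of gene start; dashed line, border between 19p13 and 19q), for homozygous and heterozygous cells against wild type. Large points were called, grey points were not, and triangles at -4 stand for ZNF562, ZNF229 and ZNF677, whose values lie beyond the axis; called members are spread along both arms between members near 0.

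Chromosome 19 genes without a ZNF name had a median on the other side of 0 in homozygous cells, whether or not they were taken from the members' clusters alone. This group is set by name alone and still holds zinc-finger genes named otherwise, such as ZFP14 and ZFP82. Over all 909 tested genes without a ZNF name outside 19p12 the median log2 fold change was 0.12. Of them, 42 rose (4.62%) and 4 fell (0.44%), against 3.5% and 4.18% of all tested genes. Falls were thus rarer than over all tested genes, and rises a little more frequent. Of the 419 of these 909 genes that are interleaved with the members, 21 rose (5.01%) and 2 fell (0.477%) in homozygous against wild-type cells. Their median log2 fold change was 0.12, while that of the members was -0.12 and that of all tested genes 0.01. Of these 21 rises, 13 lay in the cluster between 40.0 and 45.1 Mb, where 80 such genes were tested. In heterozygous against wild-type cells 3 of the 419 rose and 2 fell (1.19% called, against 1.86% of all tested genes). The medians were -0.06 for the members and -0.01 for these genes. The order of these medians rested on single libraries, being -0.03 for the members and -0.05 for the interleaved genes without heterozygous replicate 1, and -0.11 and 0.03 without heterozygous replicate 3. Relative to the wild-type mean, the median member stood at -0.09, -0.20 and -0.05 in homozygous replicates 1, 2 and 3, at -0.13, -0.07 and 0.00 in the heterozygous replicates, and at -0.02, 0.03 and -0.00 in the wild-type replicates, on the scale of log2(CPM + 0.5). The interleaved genes stood at 0.05, 0.21 and 0.02 in the same homozygous replicates, so that homozygous replicate 2 was farthest from wild type for both groups. In heterozygous replicates 1, 2 and 3 the interleaved genes stood at 0.08, -0.005 and -0.09, and in the wild-type replicates at 0.02, -0.03 and 0.01. Among the heterozygous replicates the members and the interleaved genes thus also ran in opposite directions. Without homozygous replicate 2 the medians in homozygous against wild-type cells were -0.07 for the members and 0.04 for the interleaved genes. In homozygous against wild-type cells, 10 of the 29 tested ZNF genes of 19p12 fell (34.5% called, median -0.45). Of 261 tested ZNF genes of other chromosomes, 14 rose and 11 fell in that comparison (9.58% called, median -0.03). These medians describe the groups, and no test of the difference between groups was made.

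**Figure D4:**
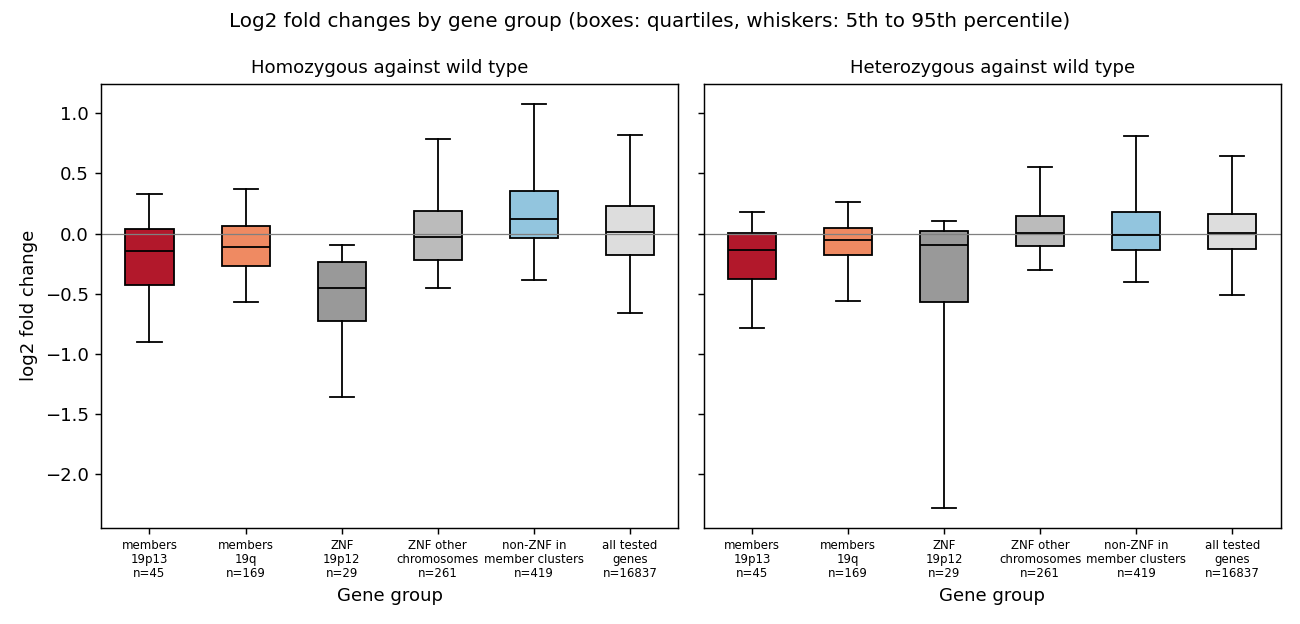
Log2 fold changes against wild type in homozygous (left) and heterozygous cells (right) for tested members of 19p13 (n = 45) and 19q (n = 169), ZNF genes of 19p12 (n = 29) and of other chromosomes (n = 261), genes without a ZNF name inside the members' clusters (n = 419) and all 16837 tested genes. Boxes show quartiles and whiskers the 5th to 95th percentile; in homozygous cells the members' boxes lie mostly below 0 and that of the interleaved genes mostly above.

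Genes through which KRAB proteins and DNA methylation act were also looked at. Of the 28 genes listed, 27 were tested, and CHD3 alone was called, in homozygous against wild-type cells, where 7.68% of all tested genes were called. In heterozygous against wild-type cells and between the mutants edgeR, DESeq2 and limma called 0 of them, with 1 and 5 at an unadjusted p below 0.05 in edgeR. Of all tested genes, edgeR called 1.86% and 2.21% in these comparisons. At such shares a list of this size would hold few calls, so their scarcity is not a result about the list. TRIM28, the co-repressor bound by KRAB domains, stood at 779, 713 and 823 CPM in homozygous, heterozygous and wild-type cells (adjusted p = 0.727 and 0.486 against wild type). SETDB1, the histone methyltransferase it recruits, stood at 61.4, 57.4 and 58.8 CPM, and the maintenance DNA methyltransferase DNMT1 at 124, 123 and 124 CPM. CHD3, a remodeller of the NuRD complex, stood at 135 ± 17.4 CPM in homozygous against 98.4 ± 6.06 CPM in wild-type cells (SD, n = 3 each; log2 fold change 0.45, SE 0.10, adjusted p = 0.0131), a call that was lost without wild-type replicates 2 or 3 (0.0694 and 0.0785) or homozygous replicate 1 (0.0555). ZFP57, an imprint regulator, was too low to be tested.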

How the data were processed

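RNA-seq counts per gene were analysed in 9 libraries, 3 per genotype. The deposited values are whole-number read counts, not normalised. FastQC, Trimmomatic, HISAT2, SAMtools, HTSeq and hg38 are named per the submitters' processing notes, without versions; these sources give no strand setting. Symbols were matched for 26234 of 26240 genes, and 25209 had GENCODE 29 coordinates.

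Counts were fitted with edgeR 4.0.16 (R 4.3.3; filterByExpr, TMM scaling, quasi-likelihood test over all 9 libraries, no covariate), with p-values adjusted by Benjamini-Hochberg over 16837 genes. The fit was tested on simulated data. Alternatives were other scalings and filters, DESeq2 1.42.0, limma-voom 3.58.1, glmTreat, a replicate block and leaving out each library. Medians under each alternative were added after seeing the data. A new cluster began where a member started over 2.0 Mb after the start of the member before it. Promoter windows came from RefSeq.

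Members and lists were chosen with earlier results of these data known. Named members are the 4 markers ZNF562, ZNF677, ZNF69 and ZNF772, the 12 largest called, non-overlapping changes per direction in homozygous cells (6 in other comparisons) with at least 1 CPM, the 3 most abundant per arm, and those with 0 counts in a genotype; CHD7 and called co-repressors were named too.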

Additional observations from a re-analysis of the deposited data

Results flagged for a closer look

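ZNF772 moved in opposite directions in the 2 mutants, higher in homozygous and lower in heterozygous cells than in wild type. The difference between those changes was 4.15 on the log2 scale and passed edgeR's quasi-likelihood test of homozygous against heterozygous cells (SE 0.34, adjusted p = 2.73e-05). Both changes share the wild-type libraries. The heterozygous level rests on 11 counts over 3 libraries, and the homozygous rise over wild type alone was not called without wild-type replicate 2 or 3.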

How the results depend on the processing

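The counts of called members (21 and 12 in homozygous and in heterozygous cells against wild type, and 8 between the mutants) stayed within 1.5 times under other scalings and filters, DESeq2, limma-voom and fits to 6 libraries. Against a 1.5-fold change they were 4, 6 and 4, and for homozygous against wild-type cells 2 of 19p13 and 2 of 19q; that test asks for more than a difference from 0. With 1 library left out, the counts were 9 to 29, 8 to 14 and 6 to 9, with 3 to 9 on 19p13 and 6 to 20 on 19q in homozygous against wild-type cells; fewer samples enter these fits, and why single libraries mattered was not tested. Of the 39 calls of named members, 22 held whichever library was left out (8 of 20, 8 of 11 and 6 of 8).

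With the replicate number as a block the counts were 22, 12 and 8, and ZNF816 lost its call (adjusted p = 0.0537, edgeR). Deviations from the genotype mean correlated at -0.174 to 0.232 between same-numbered libraries and at -0.413 to 0.317 between others. These values do not settle whether the numbers pair the libraries, and the labels do not say what the numbers mean. Upper-quartile scaling ended the calls of ZNF44, ZNF816 and ZNF121 in homozygous against wild-type cells (adjusted p = 0.0583, 0.0583 and 0.0501). The members' median log2 fold change in homozygous against wild-type cells was -0.17 to -0.07 over the settings run. Depth limits the members with few counts: 22 were not tested.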

Other observations

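The tested members varied more between mutant than between wild-type libraries, with a median coefficient of variation of 12.5% in homozygous, 12.3% in heterozygous and 6.79% in wild-type cells. That value was not computed over all genes. The chi-square per degree of freedom is another measure, which is not limited to the members and leaves out genes with few counts. It reached 30.6, 25.9 and 9.32 in the same order of genotypes. A wider spread in the mutants is therefore not shown to be particular to the members. Of the 31 members not annotated as protein-coding, 20 were tested. In homozygous against wild-type cells 2 of them were called, ZNF561-AS1 higher and ZNF702P lower, which is 10%, against 7.68% of all tested genes. In heterozygous against wild-type cells ZNF702P was called, 1 of 20 or 5.0%, against 1.86% of all tested genes. Members called in at least 1 comparison had a median wild-type level of 14.8 CPM, and those called in none 9.35 CPM.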
